A study of Mus musculus with 8 samples.

Results

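The 10 genes described here build, anchor or switch on the contractile apparatus of smooth muscle: Acta2, Actg2, Myh11, Tagln, Cnn1, Smtn, Lmod1, Synpo2, Des and Myocd. They were taken by symbol from the 55385 genes that the count files list, and 10 of 10 were found. Messenger RNA was sequenced from whole lungs of C57BL/6 mouse fetuses at E18.5, from 4 control fetuses and from 4 fetuses after tracheal occlusion (TO), to see how the fetal lung responds when its own fluid is held inside the airways. In the TO group the trachea was tied at E16.5 by a stitch passed through the wall of the uterus, which also closed a carotid artery and a jugular vein, and the pregnant mice were given progesterone a day later. What was done to the control fetuses is not described for the mice, and neither a genotype beyond the strain nor sex is given for either group. The effect of closing the airway and that of closing the vessels cannot be told apart in this design. The labels name each lung a specimen and do not state litters, so p-values measure the spread between these samples.

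Read pairs counted on genes numbered 22822261, 30768440, 32382284 and 24511486 in controls 1 to 4, and 270078, 35002061, 24494782 and 34390241 in TO 1 to 4. In TO 1 a gene with 3 read pairs stood at 10.4 counts per 1000000 read pairs on genes (CPM, after TMM scaling), against 0.0852 to 0.131 CPM in the other 7 libraries, so values of TO 1 are coarse. The reads carry no molecular identifiers, and such floors cover counting error only. Differences were tested in the 6 libraries that the study's figures show, controls 1, 2 and 4 and TO 2, 3 and 4, and control 3 and TO 1 are given beside them. The lung label fitted its markers: Sftpc, the surfactant protein of alveolar type 2 cells, lay between 4441 and 12798 CPM and Nkx2-1, the lung epithelial transcription factor, between 324 and 747 CPM over the 8 libraries.

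Smooth muscle wraps the airways and the pulmonary vessels of the fetal lung, and its cells shorten when myosin pulls on filaments of smooth muscle actin. The serum response factor binds a short DNA element, the CArG box, near many contractile genes, and myocardin is its partner in switching them on. Several of these genes are also used outside smooth muscle: desmin in heart and skeletal muscle, and Acta2 and Tagln in the myofibroblasts that shape the air spaces.

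RefSeq promoter windows (GRCm38.p6, 250 bases before to 50 after the start of each gene) were available for 6 of the 10 genes (not Tagln, Myh11, Actg2 and Myocd), and both strands of them were searched because these genes are known to share CArG boxes. A CArG box with at most 1 base other than A or T in its middle was found in the window of Acta2, at 2 places, and in none of the windows of Cnn1, Smtn, Lmod1, Synpo2 and Des, and 9.98% of all 32851 windows held such a match. A box with A or T alone in its middle was in 0 of the 6 windows and in 1.63% of all windows. The motif CATTCC (MCAT), which TEAD factors bind, was found on either strand in 3 of the 6 windows and in 14.7% of all. The matches are shown with their neighbouring bases on the strand of the gene, 5′ to 3′, with the motif in capitals, and none of the 5 overlaps another. A match is a description of the letters, not a binding site. The stretches of Acta2 lie before the start that RefSeq gives and overlap an exon of the gene in GENCODE M21, and those of Smtn and Lmod1 overlap no exon of their genes.
Acta2, CArG box 84 bases before the start, chr19:34255438-34255467, minus strand: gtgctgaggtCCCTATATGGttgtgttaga
Acta2, CArG box 34 bases before the start, chr19:34255388-34255417, minus strand: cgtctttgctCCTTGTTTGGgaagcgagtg
Acta2, MCAT on the opposite strand, chr19:34255502-34255531, minus strand: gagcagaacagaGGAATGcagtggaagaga
Smtn, MCAT, chr11:3539497-3539526, minus strand: cggtttgtggcaCATTCCggactttggctt
Lmod1, MCAT on the opposite strand, chr1:135324671-135324700, plus strand: ccaagattccctGGAATGtcctcaagtttc

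The way read pairs were counted set the level of 1 of the 10 genes. Tagln (transgelin, an actin-binding protein of smooth muscle; ENSMUSG00000032085.5, chr9:45929619-45936058 on GRCm38, minus strand) had 14, 6, 15 and 11 read pairs in controls 1 to 4 and 0, 24, 8 and 16 in TO 1 to 4 in the count column that takes both strands together. The files hold a further column for each strand, and over the 6 libraries Tagln had 10885 read pairs in the first and 11240 in the second, against 79 in the column for both. Of the 1988 exonic bases of Tagln, 1241 (62.4%) are also exon of Gm48529, an antisense gene on the plus strand (chr9:45930112-45933738), and 108 are exon of Pcsk7. A read pair in such bases belongs to more than 1 gene when strand is ignored, and it is then counted for neither. Gm48529 itself had 179 read pairs in the column for both strands over the 6 libraries, beside 11139 and 10809 in the strand columns, which mirror those of Tagln in libraries where 49.9% to 50.1% of the pairs on genes fell on the first strand. The first coding bases of Tagln show the overlap: they lie in exon 2 of transcript Tagln-201 at chr9:45931702-45931761 (GRCm38), and their reverse complement is part of 1 of the 2 transcripts of Gm48529.
Tagln, first 60 coding bases: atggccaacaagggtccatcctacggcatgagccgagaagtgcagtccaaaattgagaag

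The sum of the strand columns was therefore used for Tagln, a choice made after seeing the data, and read pairs of the antisense genes cannot be told apart from those of Tagln in it. Smtn was touched less: 714 of its 4380 exonic bases (16.3%) are shared with Gm11946 on the other strand, and the column for both strands held 17762 read pairs over the 6 libraries, 67.0% of the 26530 in the strand columns summed. Of the other 8 genes, the share was 99.99% for Des and 100% for 7. Among 13243 genes with at least 1000 read pairs in the strand columns, 754 (5.69%) kept under 10% of them in the column for both strands.

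**Figure D1:**
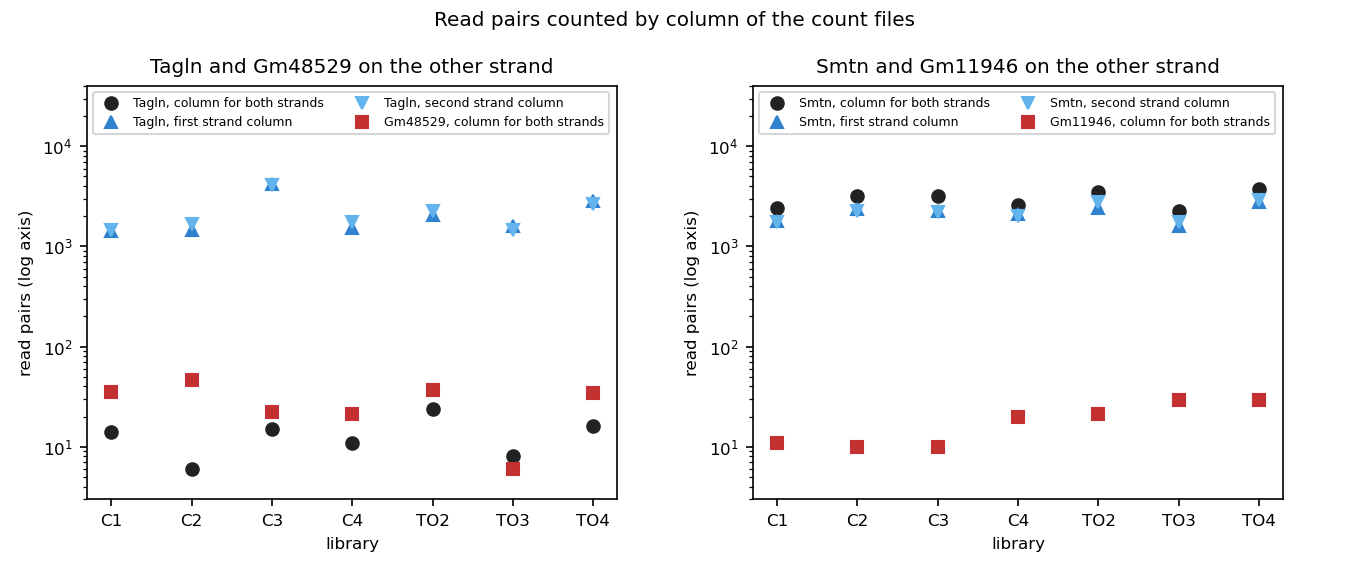
Read pairs (log axis) of Tagln and Smtn in each library but TO 1, in the column for both strands (circles) and in the column of each strand (triangles), with the antisense genes Gm48529 and Gm11946 in the column for both strands (squares). Tagln lies at 6 to 24 read pairs in the column for both strands and at 1427 to 4219 in the strand columns, while the 3 columns of Smtn lie close together.

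Per kilobase of exon, mean levels over the 6 libraries were highest for the actin Acta2, at 136 ± 34.9 CPM per kb (mean ± SD, n = 6), and next for Tagln, at 64.3 ± 8.68. Actg2 (36.3 ± 17.0), Smtn (35.1 ± 2.24), Myh11 (33.9 ± 9.70) and Des (29.0 ± 12.7) followed, at means that differed by less than the SD of Actg2. Cnn1 stood at 11.7 ± 5.89, and Myocd (3.57 ± 1.30), Lmod1 (3.07 ± 0.931) and Synpo2 (2.85 ± 1.04) were lowest and overlapped. Tagln and Smtn were taken here from the strand columns summed.

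The edgeR quasi-likelihood test called 0 of the 10 genes between TO and control lungs in the 6 libraries at an adjusted p under 0.1, where it called 0 (0%) of all 21859 genes tested. All 10 passed the filter of at least 5 reads in 3 or more libraries. At an unadjusted p under 0.05 it found 0 of the 10, against 5.14% of all genes (1123), and DESeq2 called 0 of the 10 against 0.201% of all (44 genes). With limma-voom no gene of all those tested was called, and 1361 had an unadjusted p under 0.05. In all 8 libraries the counts were also 0 of 10, against 0% of 22545 genes called and 2.35% (530) at an unadjusted p under 0.05. The median log2 fold change of the 10 genes was 0.22, with 6 above and 4 below 0, beside -0.0045 over all genes tested, and each of the 10 intervals of 95% included 0. These values take Tagln from the column for both strands, and with the strand columns summed for all genes the median was 0.18 in the 6 libraries, 0.09 in 7 and 0.05 in all 8. In the column for both strands the median depended on single lungs: it was -0.06 without control 2 and -0.03 without TO 4, and it lay between 0.24 and 0.43 without any other of the 6. For none of the 10 were the TO lungs all above or all below the control lungs, where 5.15% and 5.76% of all genes were. Without TO 4, edgeR called 144 genes, 0 of the 10 among them, Acta2 and Myh11 had an unadjusted p under 0.05, as did 2217 of 20801 genes, and 3 of the 10 (Acta2, Myh11 and Smtn) lay lower in both remaining TO lungs than in the 3 controls, as did 14.3% of all genes. Without control 4, edgeR called 52 genes, again 0 of the 10, Des had an unadjusted p under 0.05, as did 1389 of 21094 genes, and 1 of the 10 (Des) lay higher in every TO lung than in the controls, as did 11.7% of all genes. Without TO 2, 1 of the 10 (Lmod1) lay higher, as did 10.6% of all genes. A block for replicate number, which is not an established pairing and left 1 residual degree of freedom, gave 219 calls from edgeR among 21859 genes in the 6 libraries. Actg2, Cnn1 and Des were among the genes called. In whole lung a lower level can come from fewer cells of a type or from less RNA in each, and these cannot be told apart.

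**Figure D2:**
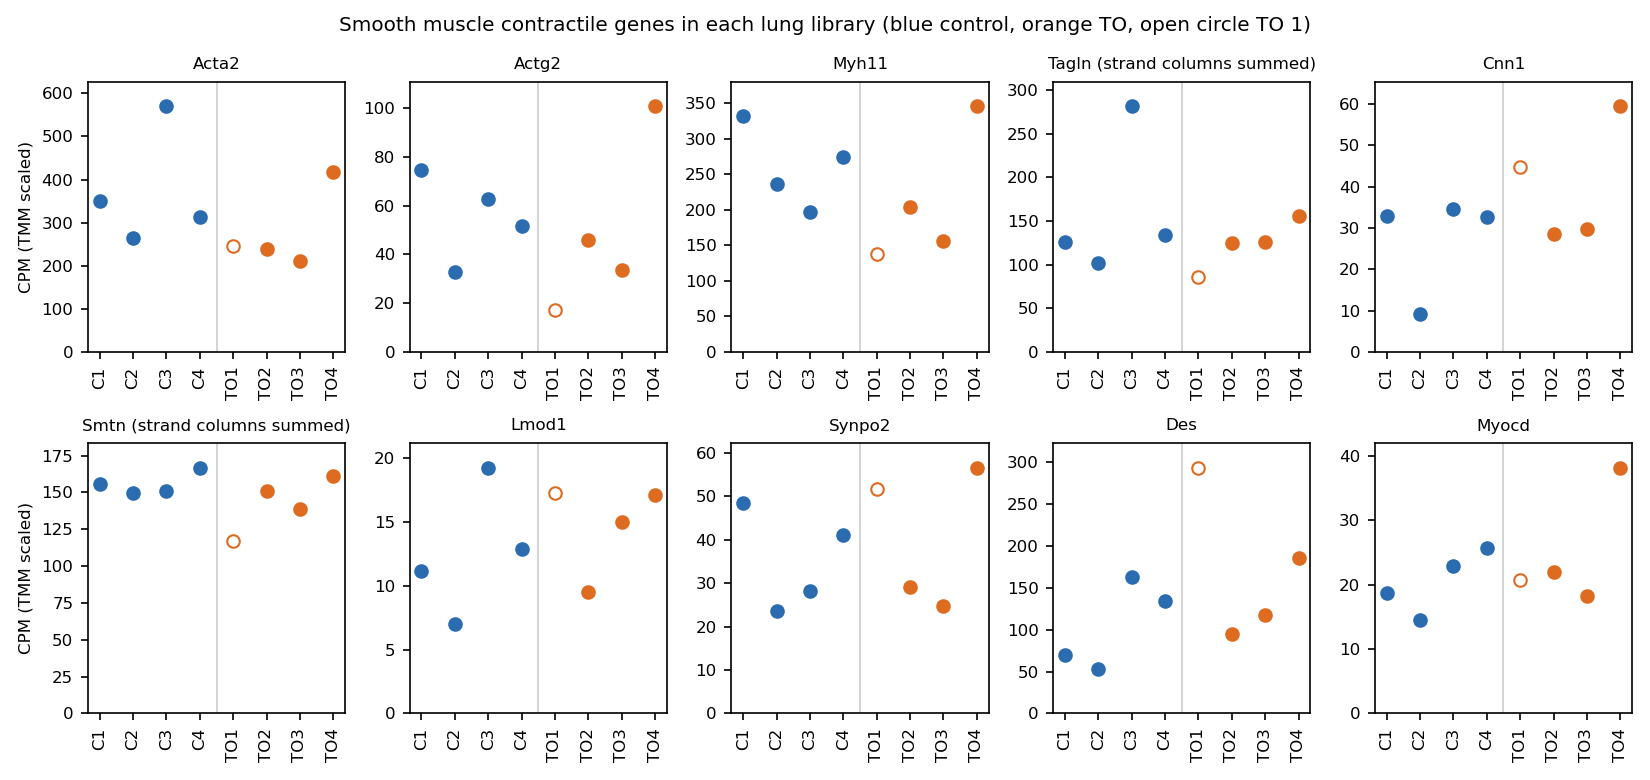
CPM of each of the 10 genes in every library, controls (C1 to C4) in blue and TO lungs in orange, with TO 1, the library of 270078 read pairs, as an open circle; each axis starts at 0, and Tagln and Smtn are from the strand columns summed. The groups overlap for all 10 genes in the 6 libraries tested, and TO 4 is the highest of the 7 deeper libraries for 6 genes and control 2 the lowest for 7.

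The actins form the filament on which myosin pulls. Acta2 (alpha smooth muscle actin, ENSMUSG00000035783.9, chr19:34241090-34255590, minus strand) stood at 351, 264, 570.3 and 312 CPM in controls 1 to 4 and 245, 239, 212 and 418 CPM in TO 1 to 4. Control 3 was highest and TO 3 lowest of the deeper libraries, and the groups overlapped through TO 4. The means were 309 ± 43.7 CPM in controls and 289 ± 112 CPM in TO lungs (mean ± SD, n = 3 each), with a log2 fold change of -0.09 ± 0.24 (SE; edgeR adjusted p = 0.980; 95% interval -0.64 to 0.46). It was -0.37 with control 3 added and -0.42 with all 8 libraries, and -0.45 in the 6 without TO 4 and 0.10 without TO 3. Actg2 (gamma smooth muscle actin, the actin of gut and other visceral muscle, ENSMUSG00000059430.14, chr6:83512905-83536265, minus strand) stood at 74.5, 32.8, 62.5 and 51.8 CPM in controls 1 to 4 and 17.3, 45.8, 33.6 and 101 CPM in TO 1 to 4, where TO 1 rested on 5 read pairs. TO 4 and control 1 were highest, and TO 3 and control 2 were nearly level at the low end of the deeper libraries. Its log2 fold change was 0.19 ± 0.41 (SE; edgeR adjusted p = 0.975), with -0.41 without TO 4 and 0.51 without control 1.

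Myh11 (smooth muscle myosin heavy chain, the motor, ENSMUSG00000018830.10, chr16:14194535-14291372, minus strand) stood at 331, 236, 197 and 274 CPM in controls 1 to 4 and 138, 204, 156 and 346 CPM in TO 1 to 4. The highest lungs were TO 4 and control 1, 1 of each group, and the lowest deeper library was TO 3. The means were 280.4 ± 47.9 CPM in controls and 235 ± 98.7 CPM in TO lungs (mean ± SD, n = 3 each), and the log2 fold change was -0.25 ± 0.27 (SE; edgeR adjusted p = 0.939; 95% interval -0.86 to 0.36). Without TO 4 it was -0.64 and without TO 3 -0.01.

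Among the actin-binding genes, Tagln from the strand columns summed stood at 126, 102, 281 and 134 CPM in controls 1 to 4 and 86.3, 124, 126 and 155 CPM in TO 1 to 4. Control 3 lay far above the others, and among the other deeper libraries the groups overlapped. The means in the 6 libraries were 120.4 ± 16.7 CPM in controls and 135 ± 17.3 CPM in TO lungs (mean ± SD, n = 3 each). In a fit of these sums over all genes, its log2 fold change was 0.17 ± 0.14 in the 6 libraries (SE; edgeR adjusted p = 0.903) and its sign turned with control 3 added, to -0.25 in 7 libraries and -0.34 in all 8. From the column for both strands the value was 0.25 ± 0.81, on 79 read pairs. Cnn1 (calponin, which damps the myosin motor on actin, ENSMUSG00000001349.5, chr9:22099216-22109630, plus strand) stood at 32.9, 9.10, 34.7 and 32.7 CPM in controls 1 to 4 and 44.9, 28.7, 29.7 and 59.5 CPM in TO 1 to 4. Control 2 was low and the other controls close together, so that the TO lungs lay on both sides of those 3. Cnn1 had the largest fitted difference of the 10 in the 6 libraries, a log2 fold change of 0.66 ± 0.46 (SE; edgeR adjusted p = 0.909), close to the 0.63 ± 0.35 of Des. The value of Cnn1 was 0.26 without control 2 and 0.23 without TO 4, and in all 8 libraries it was 0.55, below the 0.63 of Des. Smtn (smoothelin, a marker of contractile smooth muscle cells, ENSMUSG00000020439.17, chr11:3517523-3540612, minus strand) varied least: the column for both strands gave 105, 104, 107 and 104 CPM in controls 1 to 4 and 65.6, 102, 94.1 and 107 CPM in TO 1 to 4. The controls and the deeper TO lungs were nearly level, and the 95% interval of its log2 fold change, -0.28 to 0.18, was the narrowest of the 10 in that column.

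Lmod1 and Synpo2 shape the filaments and their anchors. Lmod1 (leiomodin, which starts new actin filaments, ENSMUSG00000048096.7, chr1:135324807-135368065, plus strand) stood at 11.2, 6.99, 19.3 and 12.9 CPM in controls 1 to 4 and 17.3, 9.56, 15.0 and 17.1 CPM in TO 1 to 4, and Synpo2 (synaptopodin 2, an actin-bundling protein, ENSMUSG00000050315.14, chr3:123076519-123236149, minus strand) at 48.5, 23.6, 28.1 and 41.1 in controls 1 to 4 and 51.8, 29.2, 24.7 and 56.6 in TO 1 to 4. Control 3 was highest for Lmod1 and TO 4 for Synpo2 among the deeper libraries, control 2 was lowest for both, and the groups overlapped. Their log2 fold changes were 0.42 ± 0.29 and -0.03 ± 0.35 (SE; edgeR adjusted p = 0.909 and 0.995). Lmod1 was at 0.21 without control 2 and at 0.14 with control 3 added. Synpo2 was at -0.48 without TO 4 and 0.20 without TO 3, and it changed sign with control 3 added, at 0.06 in the 7 libraries without TO 1.

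Des (desmin, the intermediate filament of muscle, ENSMUSG00000026208.9, chr1:75360329-75368579, plus strand) stood at 70.2, 52.5, 163 and 134 CPM in controls 1 to 4 and 293, 94.5, 118 and 185 CPM in TO 1 to 4. TO 1 was highest, controls 1 and 2 were lowest, and controls 3 and 4 lay among the TO lungs. The means were 85.7 ± 43.0 CPM in controls and 132 ± 46.9 CPM in TO lungs (mean ± SD, n = 3 each), and the log2 fold change was 0.63 ± 0.35 (SE; edgeR adjusted p = 0.907; 95% interval -0.17 to 1.42). Without control 4 it was 1.11, without TO 4 it was 0.31, and with control 3 added it was 0.33. Myocd (myocardin, the coactivator, ENSMUSG00000020542.18, chr11:65176561-65269989, minus strand) stood at 18.8, 14.6, 23.0 and 25.8 CPM in controls 1 to 4 and 20.7, 22.0, 18.3 and 38.2 CPM in TO 1 to 4, with a log2 fold change of 0.41 ± 0.31 (SE; edgeR adjusted p = 0.910). TO 4 was above every other library and the rest of both groups overlapped, and without TO 4 the value was 0.04.

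**Figure D3:**
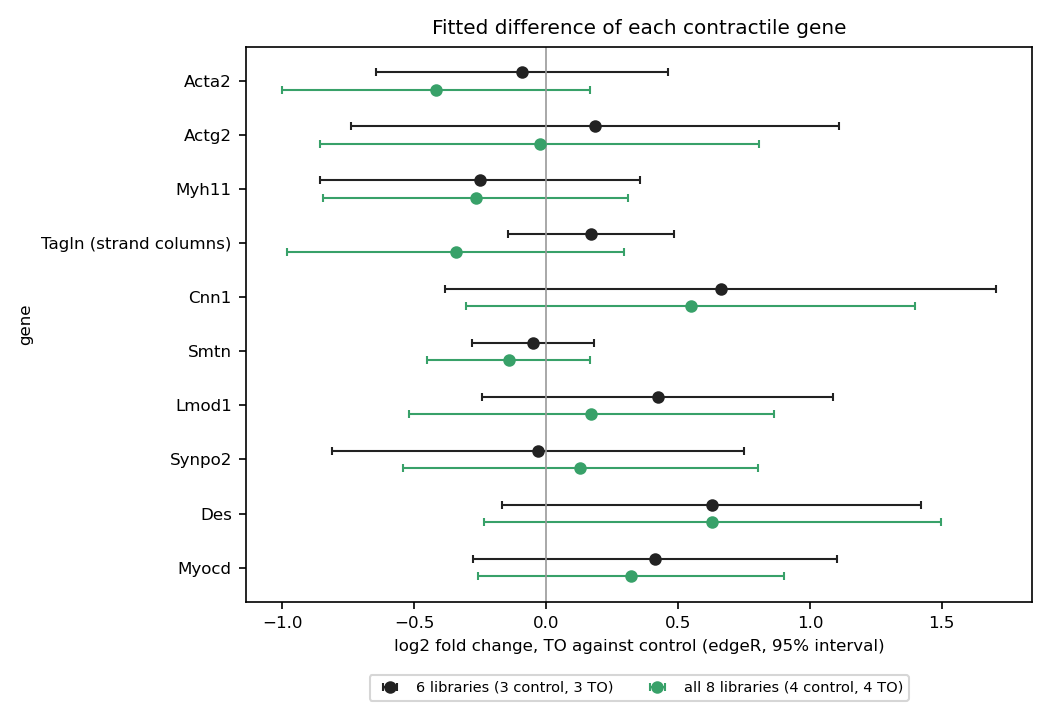
Log2 fold change of TO against control for each gene with its 95% interval from edgeR, in the 6 libraries (black) and in all 8 (green), with Tagln taken from the strand columns summed. Every interval includes 0, and Tagln, Actg2 and Synpo2 lie on different sides of 0 in the 2 fits.

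The pattern over libraries differed among the 10 genes. Over the 7 deeper libraries, Pearson's r of log2(CPM + 1) between pairs of the 10 ran from -0.13 (Myh11 and Tagln) to 0.91 (Lmod1 and Des), with a median of 0.54 over 45 pairs, as a description of libraries that share the same 2 groups. Myh11, Actg2 and Synpo2 went together (r = 0.88 for Myh11 and Synpo2, 0.89 for Actg2 and Synpo2 and 0.75 for Actg2 and Myh11), and so did Acta2 and Tagln (r = 0.84). Without the 2 libraries farthest from the median of the second gene of each pair, these values were 0.64, 0.61, 0.40 and 0.75, so the first 3 rest in part on those libraries. Smtn also went with Myh11, Synpo2 and Actg2, with r of 0.82, 0.77 and 0.64, and 0.89, 0.88 and 0.89 without 2 libraries. Actg2 had r of 0.78 with Cnn1 and with Myocd, and 0.74 and 0.17 without 2 libraries. The sets were not separate: r was 0.73 for Acta2 and Actg2 (0.76 without 2 libraries) and 0.79 for Tagln and Lmod1 (0.74). Other pairs across them were lower, such as Acta2 with Myh11 at 0.40 (-0.14) and Tagln with Synpo2 at 0.06 (0.13). Levels of markers of other tissues are given beside these sets, and the pairings were picked after the values were seen.

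The stratified epithelium list holds 8 genes of stratified linings such as those of esophagus and skin. Krt5 and Krt14 are among them, and the study uses keratin-5 and keratin-14 as markers of basal cells in lung. The list summed to 296, 12.3, 11.3 and 13.7 CPM in controls 1 to 4 and 486, 14.3, 16.1 and 290 CPM in TO 1 to 4, with Krt4 as its most abundant gene. Krt4, a keratin of the esophageal lining, stood at 149, 3.25, 1.08 and 4.93 in controls 1 to 4 and 3.45, 3.04, 2.11 and 134 in TO 1 to 4, and Krt13, its partner, at 104, 0.780, 0.437 and 1.25 in controls 1 to 4 and 24.2, 1.01, 0.289 and 106 in TO 1 to 4. Control 1 and TO 4, the highest of the deeper libraries for Myh11, Actg2 and Synpo2, were those of the 7 in which these keratins were high, while Dsg3 was at 0 or under 0.05 CPM in the other 5. Krt5 (22.3 and 24.3 CPM), Dsg3 (9.42 and 10.3) and Krt6a (2.76 and 4.60) were likewise highest of the 7 in control 1 and TO 4. Sbsn and Krtdap did not follow Krt4 and Krt13: Sbsn was at 4.95 CPM in control 1 and 6.62 in TO 4, and highest of the 7 in TO 3 at 8.88, and Krtdap was under 1 CPM in all 7. Krt14 ran from 1.56 to 3.86 CPM over the 7. Krt5 and Krtdap stood at 193 and 114 CPM in TO 1. With control 1 and TO 4 left out of the 7 deeper libraries, a choice made after seeing the data, the median log2 fold change of the 10 genes was -0.12, edgeR called 0 genes, Acta2 was at -0.76 with an unadjusted p under 0.05, as 425 of 21003 genes had, and Acta2 and Smtn lay lower in both TO lungs than in the 3 controls, as did 6.96% of all genes. Of the 6 genes of the stratified epithelium list that were tested, 5 had a log2 fold change above 0 and 0 were called. Their median was 0.32, with 0.45 when control 3 was added and 1.54 in all 8 libraries. In the 6 libraries the values ran from -0.16 (Krt4) to 4.31 (Krtdap). The part of stratified epithelium in the levels of Myh11, Actg2 and Synpo2 was not tested, and RNA of Krt5 and Krt14 can also come from basal cells of the airways.

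Heart muscle genes are given beside Des and Lmod1. The cardiac list (13 genes) summed to 833, 586, 5921 and 4672 CPM in controls 1 to 4 and 8961, 2633, 3940.3 and 7075 CPM in TO 1 to 4, none of its genes was at 0 in any library, and its most abundant gene was Myh6, the alpha myosin heavy chain of heart. Actc1, cardiac actin, stood at 186, 107, 1378 and 935 in controls 1 to 4 and 1898, 519, 777 and 1469.5 in TO 1 to 4, and its r with Des over the 7 deeper libraries was 0.99, and again 0.99 without the 2 libraries farthest from its median. This held less for other cardiac genes, whose r with Des went from 0.92 to 0.60 for Myh6, from 0.91 to 0.51 for Myl4 and from 0.85 to -0.10 for Myl7, the atrial light chains, when 2 libraries were left out in the same way. For Lmod1, r went from 0.88 to 0.91 with Actc1 and from 0.82 to 0.88 with Myh6, but from 0.78 to 0.66 with Myl4 and from 0.69 to 0.14 with Myl7. The other members had r with Actc1 of 0.79 (Cnn1), 0.78 (Myocd), 0.67 (Tagln), 0.42 (Acta2), 0.42 (Actg2), 0.26 (Synpo2), 0.19 (Smtn) and -0.12 (Myh11). Without 2 libraries these were 0.75, 0.62, 0.68, 0.85, 0.75, 0.53, 0.36 and 0.50. Of the 13 cardiac genes 13 had a log2 fold change above 0 and 0 were called, with a median of 1.21, and Myh6, Actc1 and Tnnt2, a cardiac troponin, stood at 1.08 ± 0.65, 1.17 ± 0.72 and 1.27 ± 0.80 (SE). With control 3 added the median was 0.74, Myh6 stood at 0.50 and Actc1 at 0.50. The skeletal muscle list (12 genes) summed to 151, 31.0, 177 and 141 CPM in controls 1 to 4 and 2985, 233, 165 and 331 CPM in TO 1 to 4. Of its 11 tested genes 0 were called, and all 11 had a log2 fold change above 0 (median 1.20, 1.08 with control 3 added and 2.63 in all 8 libraries). Its most abundant gene over the 6 libraries was Ckm, a creatine kinase that heart also expresses. The sums of both muscle lists come from the column for both strands. Of the read pairs in the strand columns it kept 10.9% for Nppa, 52.4% for Myh7, 47.5% for Ckm and 1.70% for Tnnc2, which was not tested. Acta1 (skeletal actin) and Myh8 (perinatal myosin) stood at 721 and 856 CPM in TO 1 and at no more than 55.4 and 44.3 in the others, and Myod1 and Chrnd were at 0 in TO 1, which allows up to 10.4 CPM there. The part of heart or skeletal muscle RNA in the values of Des, Lmod1 and the other members was not tested.

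Acta2 and Tagln were highest in control 3, and so was Eln, the elastin gene, at 3667, 4239.9, 10262 and 4469.8 CPM in controls 1 to 4 and 2219, 5779.9, 9196 and 3630.3 CPM in TO 1 to 4. The alveolar myofibroblast list (8 genes, with Eln as the most abundant and none at 0) summed to 4708, 5253, 11535 and 5418 CPM in controls 1 to 4 and 2857, 6843, 10011 and 4499 CPM in TO 1 to 4. Eln was also high in TO 3, where Acta2 was lowest of the deeper libraries, and its r over these 7 was 0.05 with Acta2 and 0.56 with Tagln. Without the 2 libraries farthest from the median of Eln these were -0.86 and -0.29. For the pericyte gene Pdgfrb, r with Tagln was 0.91, and -0.38 without 2 libraries left out in the same way. Of the 8 alveolar myofibroblast genes 4 had a log2 fold change above and 4 below 0 (median -0.02, and -0.13 with control 3 added), and 0 were called. At an unadjusted p under 0.05 from edgeR, 3 (Fgf18, Tgfbi and Lgr6) were lower and 0 higher, beside 452 lower and 671 higher of all 21859 genes. Eln stood at 0.58 ± 0.28 (SE), and at 0.13 with control 3 added and -0.12 in all 8 libraries, and Tgfbi and Pdgfra, the next in abundance, at -0.42 ± 0.18 and -0.09 ± 0.11. TO 3, whose specimen name shares its last 4 digits with control 3 alone, is among the 6 libraries and control 3 is not. The part of these cells in the values of Acta2 and Tagln was not tested.

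**Figure D4:**
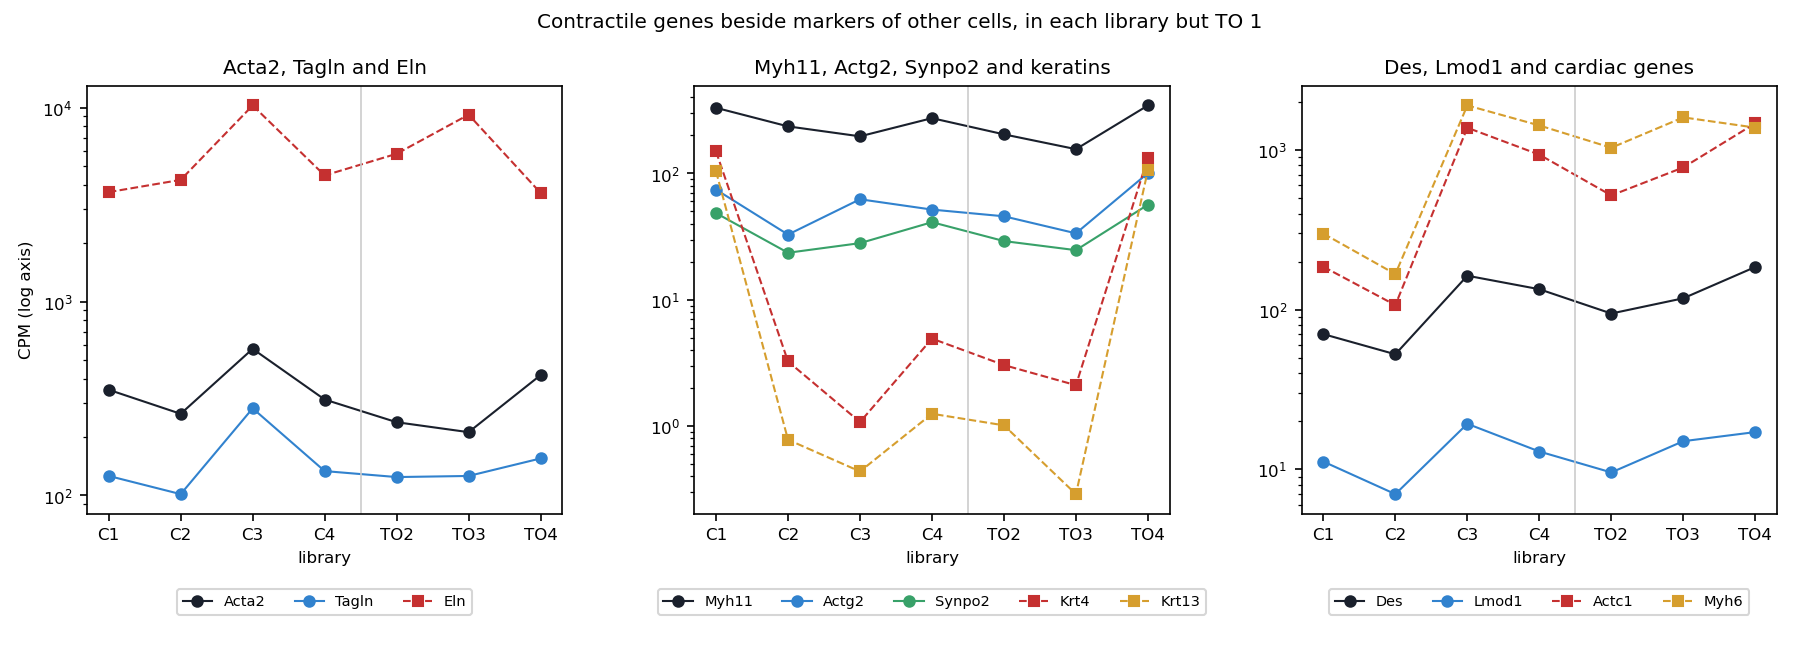
CPM (log axis) in each library but TO 1 of Acta2, Tagln and Eln (left), Myh11, Actg2, Synpo2 and the keratins Krt4 and Krt13 (middle), and Des, Lmod1 and the cardiac genes Actc1 and Myh6 (right); lines join the points of a gene only to guide the eye. Krt4 stands at 149 CPM in C1 and 134 CPM in TO4 and is under 5 CPM elsewhere, Des follows Actc1, and Acta2 and Tagln peak in C3.

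The last 4 digits of the specimen names were shared by controls 1 and 4 with TO 1 and 4 (3482), by control 2 with TO 2 (3573) and by control 3 with TO 3 (3604); what they stand for is not given in the sources used here. The 6 libraries tested hold 3604 in TO 3 alone, since control 3 is not among them. In that fit a difference between TO and control lungs cannot be fully told apart from a difference between 3604 and the other digits. Within 3604 all 10 genes were lower in the TO lung, with a median log2 ratio of -0.35. Within 3573 8 of the 10 were higher (median 0.38), and within 3482, with TO 1 left out, 9 of the 10 were higher (median 0.42). With TO 1 included in 3482, 5 of the 10 were higher and 5 lower (median 0.14), with Acta2 at -0.0015, Myh11 at -0.32 and Des at 1.23. Acta2 had log2 ratios of -1.43 in 3604, -0.14 in 3573 and 0.33 in 3482, and Cnn1, with the widest span of the 10, had -0.23, 1.66 and 0.86. With TO 1 left out, no gene of the 10 went the same way in all 3, and with it included Acta2 and Myh11 were lower in each. A fit of all 8 libraries with these digits as a block called 0 genes, 0 of the 10 among them, and Cnn1 and Des had unadjusted p of 0.0100 and 0.0344 from edgeR, where 1152 of 22545 genes had one under 0.05. These are 1 or 2 lungs against 1 or 2, and the difference between the 3 was not tested.

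**Figure D5:**
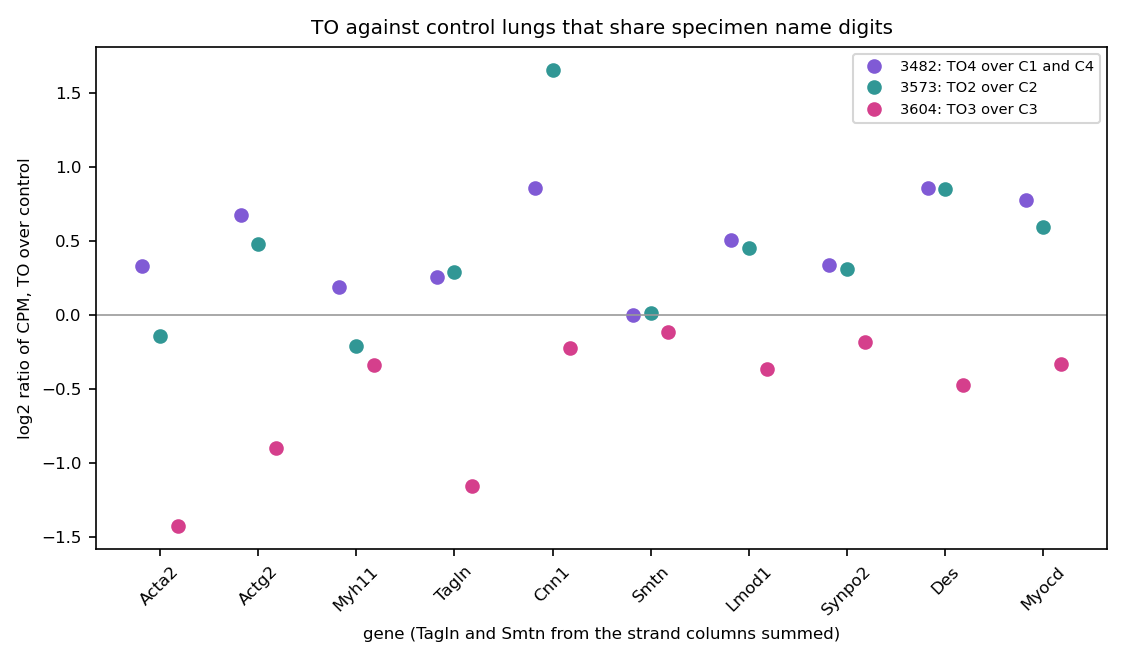
Log2 ratio of CPM between TO and control lungs whose specimen names share their last 4 digits, for each gene, with Tagln and Smtn from the strand columns summed and TO 1 left out. The 10 points of 3604 lie below 0, from -1.43 (Acta2) to -0.12 (Smtn), and most points of the other 2 lie above it.

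Further genes of the smooth muscle program and markers of other cells and tissues gave no calls either. Of 141 genes in these 14 lists, 134 were tested in the 6 libraries and edgeR and DESeq2 each called 0, while at an unadjusted p under 0.05 edgeR found 6 higher and 6 lower, together 8.96% of the genes tested from the lists, beside the 5.14% over all genes. Among 12 regulators of contractile genes, 11 were tested, 2 with a fold change above 0 and 9 below, with a median of -0.05, and -0.11 with control 3 added. Csrp1, a LIM protein of smooth muscle, Tead1, a TEAD factor that binds MCAT motifs, and Yap1, its coactivator, were the most abundant, at log2 fold changes of -0.0018 ± 0.11, -0.09 ± 0.13 and 0.02 ± 0.10 (SE). With control 3 added these were -0.13, -0.27 and 0.03, and in all 8 libraries -0.28, -0.32 and -0.05. Srf itself stood between 63.5 and 97.4 CPM. Of 16 other contractile and filament genes, 8 had a fold change above and 8 below 0 (median 0.02, and -0.08 with control 3 added). The most abundant were Flna (filamin, -0.03 ± 0.11), Tpm1 (a tropomyosin, 0.35 ± 0.15, and 0.14 with control 3 added) and Tpm4 (-0.12 ± 0.11). Myl9, the smooth muscle regulatory light chain, stood at 118, 101, 238 and 185 CPM in controls 1 to 4 and 148, 150, 153 and 245 CPM in TO 1 to 4, high in control 3 and TO 4 and lowest in control 2.

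In the list of contraction signalling and channels, 13 of 17 genes were above 0 (median 0.10), a median that turned to -0.01 with control 3 added and to -0.05 in all 8 libraries, and Rhoa, Ppp1cb and Gucy1a1, a small GTPase, a myosin phosphatase subunit and a subunit of the nitric oxide receptor, were at -0.0046 ± 0.13, 0.02 ± 0.10 and 0.10 ± 0.14. Of 13 receptors for contraction or relaxation, 4 were above and 9 below 0 (median -0.18, and -0.11 with control 3 added). The endothelin receptors Ednrb and Ednra and the sphingosine phosphate receptor S1pr3 led in abundance, at -0.30 ± 0.23, -0.18 ± 0.10 and -0.14 ± 0.13. Over all 8 libraries Ednra lay lower in every TO lung than in every control, as did 1.30% of all genes. Of 9 pericyte genes 5 were above and 4 below 0 (median 0.0014, and -0.06 with control 3 added), with Pdgfrb, Notch3 and Ndufa4l2 at 0.07 ± 0.11, -0.02 ± 0.13 and -0.03 ± 0.15. Both cytoplasmic actins were below 0 (median -0.17, and -0.31 with control 3 added), Actb at -0.22 ± 0.15 and Actg1 at -0.12 ± 0.12.

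In lists of other lung cells the median was 0.01 (-0.11 with control 3 added) over 7 endothelial genes (Cdh5 -0.14 ± 0.19, Pecam1 -0.03 ± 0.14, Kdr 0.01 ± 0.14) and 0.06 (0.10 with control 3 added) over 7 lung epithelial genes (Sftpc 0.18 ± 0.30, Sftpb 0.38 ± 0.32, Nkx2-1 -0.20 ± 0.16). The lung epithelial genes went both ways, from -0.55 ± 0.17 for Epcam, an epithelial adhesion gene, lower in the 3 TO lungs than in controls 1, 2 and 4 but not than in control 3, to 1.32 ± 0.67 for Scgb1a1, the club cell secretoglobin. The endothelial sum ran from 1297 CPM in TO 1 to 2318 CPM in TO 2. Of 9 airway cartilage genes 7 were tested, with a median of 0.04 (0.18 with control 3 added), and Hapln1, Col2a1 and Col9a1 stood at 0.04 ± 0.36, 0.61 ± 0.42 and -0.26 ± 0.40. Of 8 genes of nerve and ganglia 7 were tested, 6 of them above 0 (median 0.65), and Prph, a neuronal intermediate filament, and Sox10, a glial transcription factor, had 0.65 ± 0.36 and 0.36 ± 0.29. All these values are log2 fold changes with SE, and 0 of these genes were called by edgeR.

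Outside the lists, the gene whose log2 CPM followed the mean log2 CPM of the 10 genes most closely over the 7 deeper libraries was Dcn (decorin, a proteoglycan of fibroblasts), with Pearson's r of 0.98. Dcn stood at 139, 75.6, 157 and 139 CPM in controls 1 to 4 and 217, 117, 122 and 197 CPM in TO 1 to 4, lowest in control 2 and highest, among the deeper libraries, in TO 4. Igf2bp3 (0.97), Olfml2b, Nfe2l1, Clasp1, 5031439G07Rik and Opa1 (0.95 each), Cbfa2t2 (0.95), Atp5a1 and Zfp827 (0.94 each) came next among the genes with a mean of at least 10 CPM. In this mean Tagln and Smtn came from the column for both strands. With their strand columns summed, a score added after seeing the data, Dcn was again first (r = 0.98) and 6 of the 10 genes remained among the 10 closest, while Igf2bp3, Zfp827, 5031439G07Rik and Cbfa2t2 did not. None of the 10 was called, and the r values are a description, drawn from the top of 10658 genes over 7 libraries.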

How the data were processed

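The counts were made by the authors with STAR on GRCm38 (version not given) and deposited raw, neither scaled nor filtered. The count column for both strands was used, and the sum of the strand columns for levels of Tagln, and beside it for Smtn, while counts and medians over the members and each library left out use the column for both strands. Some read pairs name no gene. Unmapped pairs made up 3.31% to 3.82% of a library and multimapping pairs 3.76% to 4.28%. Pairs outside all exons made up 9.64% to 14.9%, and pairs ambiguous between genes 5.00% to 5.74%. Symbols and exons came from GENCODE M21, and promoter sequences from RefSeq on GRCm38.p6.

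Group differences were fitted in edgeR 4.0.16 (R 4.3.3, TMM scaling, quasi-likelihood F test). A gene entered the fit when 3 or more libraries had 5 reads of it. Adjusted p are Benjamini-Hochberg values over every gene in the fit, called under 0.1. DESeq2 1.42.0 and limma 3.58.1 were run beside it, and figures were drawn in Python 3.11.15. The CPM given used TMM factors of all 8 libraries and totals of the column for both strands, also for the strand columns summed. Counts of genes not overlapping between groups used scaling factors from the libraries of each fit. SE and intervals are those of the fit. The analysis was tested on simulated data.

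The members and the lists were chosen with earlier results of these data known. Genes were named by a rule: all 10 members, the 3 most abundant genes of each list and any gene called, and the 10 genes outside the lists most like the mean of the members. Not every gene the rule takes in is given by itself. Other genes named, among them Fgf18, Lgr6, Sbsn, Dsg3, Krtdap, Acta1, Myh8, Myod1, Chrnd, Srf, Myl4, Myl7, Epcam, Scgb1a1 and Myl9, were chosen after their values were seen. The 14 lists were regulators of smooth muscle genes, other contractile and filament genes, contraction signalling and channels, receptors for contraction or relaxation, pericyte, alveolar myofibroblast, cardiac muscle, skeletal muscle, airway cartilage, stratified epithelium, peripheral nerve and ganglia, endothelium, lung epithelium and cytoplasmic actins. Alternatives were other filters, scalings, tools and count columns, all 8 libraries or 7, each of the 6 libraries left out in turn, and a block term for replicate number or for specimen digits.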

Additional observations from a re-analysis of the deposited data

Results flagged for a closer look

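In groups of 4 lungs, 6 of the 52 sets of values examined held 1 lung whose gap to its nearest neighbour, as a share of the range of the group, passed Dixon's 95% critical value for 4 samples (shares from 0.84 to 0.99). Chance gives such a gap in about 5% of groups. For Acta2, TO 4 stood at 418 CPM and the nearest TO lung at 245 CPM. For Cnn1, control 2 stood at 9.10 CPM and the nearest control at 32.7 CPM. The summed level of the regulators of smooth muscle genes was 1774 CPM in control 3, with the nearest control at 1487 CPM. That of the alveolar myofibroblast list was 11535 CPM in control 3, with the nearest control at 5418 CPM. That of the skeletal muscle list was 2985 CPM in TO 1, the library of 270078 read pairs, with the nearest TO lung at 331 CPM. That of the stratified epithelium list was 296 CPM in control 1, with the nearest control at 13.7 CPM.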

How the results depend on the processing

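Results were recomputed under 26 alternatives, 5 of them chosen after seeing the data. Of 199 log2 fold changes of the 10 genes under alternatives other than leaving out each of the 6 libraries in turn, 23 had the other sign and 3 were newly called. The median of the 10 kept its sign in 23 of the 26 alternatives. Genes called numbered 44 with DESeq2, 7 with DESeq2 in all 8 libraries and 40 with no filter, where 31384 genes were tested and 1889 of them, Cnn1 and Des included, had an unadjusted p under 0.05. The filter at 1 CPM left out Tagln. In all 8 libraries Actg2 was at -0.024 and Synpo2 at 0.13, and in 7 libraries Synpo2 was at 0.061. With DESeq2 in all 8, they were at -0.067 and 0.16. With the second strand column Smtn was at 0.029 and Synpo2 at 0.13. With the strand columns summed, chosen after seeing the data, Tagln was at -0.25 and Synpo2 at 0.062 in 7 libraries, and Actg2 at -0.024, Tagln at -0.34 and Synpo2 at 0.13 in all 8. In the 5 libraries left of the 7 without control 1 and TO 4, also chosen after seeing the data, Actg2 was at -0.30, Lmod1 at -0.092, Des at -0.14, Myocd at -0.066 and Acta2 at -0.76. There 2 of the 10 (Acta2 and Smtn) lay lower in both TO lungs than in the controls, as did 6.96% of all genes. The cause was not tested.

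With replicate number as a block, where only numbers 2 and 4 occur in both groups and the fit has 1 residual degree of freedom, edgeR called 219 genes in the 6 libraries, 3 of the 10 among them (Actg2 at 0.73, Cnn1 at 1.25 and Des at 0.66), with Acta2 at 0.14, Myh11 at 0.066, Smtn at 0.0061 and Synpo2 at 0.39. All 10 lay above 0 there (median 0.51), and edgeR gave 5 of them an unadjusted p under 0.05, as it gave 1293 of 21859 genes. Over all 8 it called 3, with 0 of the 10 among them, Actg2 at -0.046 and Synpo2 at 0.18, and a block by the specimen digits called 0, with Synpo2 at 0.17 and Cnn1 and Des at an unadjusted p under 0.05. The numbers do not establish a pairing. After removal of the group means, the correlation of lungs with the same number was 0.05, 0.13, 0.16 and 0.07 for numbers 1 to 4. Lungs 2 and 3 and TO 1 correlated best with their own number in the other group, as did control 4, while control 1 did so with TO 4 and TO 4 with control 1. Each of these closest lungs shares the last 4 digits of its specimen name.

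Leaving out each of the 6 libraries in turn gave 0 to 144 genes called, 0 of the 10 called each time, 0 to 3 of the 10 not overlapping and a median from -0.06 to 0.43. Of all genes in these fits, 8.68% to 13.9% lay higher in every TO lung than in every control, and 9.60% to 14.3% lay lower. Log2 fold changes ranged from -0.45 to 0.10 for Acta2, -0.41 to 0.51 for Actg2, -0.64 to -0.01 for Myh11, -0.090 to 0.64 for Tagln (from the column for both strands, on 79 read pairs), 0.23 to 0.92 for Cnn1, -0.088 to 0.013 for Smtn, 0.21 to 0.64 for Lmod1, -0.48 to 0.20 for Synpo2, 0.31 to 1.11 for Des and 0.04 to 0.65 for Myocd. Depth limits TO 1, where Actg2 and Lmod1 rest on 5 read pairs each.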
